A study of Mus musculus with 20 samples.

Results

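The cytosolic ribosomal protein genes of mouse pancreatic islets are described here, in islets lacking the receptor P2Y14 and in wild-type islets. A gene was taken when its Ensembl identifier carried a protein-coding symbol made of Rps or Rpl and a number, with an optional short ending such as a, x, l or l1, and Rpsa and Rplp0 to Rplp2 were included. Pseudogene copies, mitochondrial ribosomal proteins and the Rps6k kinases were not taken, and Rps13, Rps15a and Rpl34 were left out by the same rule. This gave 76 of the 26211 genes in the table, of which 29 encode proteins of the small subunit and 47 proteins of the large subunit, on 19 chromosomes. Messenger RNA was sequenced from islets of 10 P2Y14-knockout and 10 wild-type samples, with C57BL/6 x 129S6 as the labelled strain of every sample and with no other treatment. Every sample was isolated by enzyme digestion of the pancreas, picked by hand and cultured overnight. The labels give no age or sex, nor whether samples come from separate animals, so p-values here measure only the spread between samples, which may be technical.

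Ribosomal proteins assemble with ribosomal RNA into the small subunit, which decodes the message, and the large subunit, which joins amino acids. Their messages are among the most abundant of most cells and usually begin with a run of pyrimidines at the cap, the terminal oligopyrimidine motif, through which the mTOR pathway and LARP1 set their translation and stability together. Pancreatic beta cells and acinar cells are both secretory and rely on a large protein synthesis capacity. Mammalian genomes also hold many processed pseudogenes of these genes, which are copies of the spliced message.

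A run of pyrimidines near the start of the gene was found in part of the family. Windows around RefSeq transcription starts (build GRCm38.p6) are printed for 6 of the members whose levels are described. Each window holds 30 bases before and 20 bases after the start, read 5′ to 3′ on the gene's strand. Runs of at least 8 pyrimidines are in capitals. Shorter runs, such as that of 7 in Rplp0, are not marked. Whether these annotated starts are the caps used in islets was not tested, so a window without capitals does not show that the motif is absent. Rps6 (chr4:86857348-86857397, - strand), Rpl13a (chr7:45128726-45128775, - strand) and Rps9 (chr7:3704011-3704060, + strand) hold such a run near the start, whereas Rps3 (chr7:99483690-99483739, - strand), Rplp0 (chr5:115559437-115559486, + strand) and Rps16 (chr7:28350659-28350708, + strand) have no run of that length in the window.
Rps6: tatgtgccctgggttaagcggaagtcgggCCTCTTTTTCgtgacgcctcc
Rpl13a: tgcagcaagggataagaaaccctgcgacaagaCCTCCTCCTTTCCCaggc
Rps9: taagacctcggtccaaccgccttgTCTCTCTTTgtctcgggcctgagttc
Rps3: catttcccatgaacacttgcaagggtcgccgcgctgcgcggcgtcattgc
Rplp0: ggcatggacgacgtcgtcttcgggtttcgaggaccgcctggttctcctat
Rps16: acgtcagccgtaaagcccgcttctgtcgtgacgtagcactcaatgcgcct

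RefSeq promoters matched 56 of the 76 members, with 67 annotated starts. A run of at least 8 C or T within 25 bases of either side of the start was found at 31 of the 67 starts (46.3%), against 19.7% of all 32851 starts in the table. The letters CCGGAAG, a core of the sites bound by ETS factors such as GABPA, were found on either strand in the window of 250 bases before to 50 bases after the start at 24 of 67 starts (35.8%), against 8.86% of all starts. The letters AAGATGGC, a site of the factor YY1, were found at 7 of 67 starts (10.4%), against 2.75% of all starts. TATAAA was found at 7 of 67 starts (10.4%), against 13.6% of all starts. The last letters of CCGGAAG are the first of AAGATGGC, so a stretch can hold both with an overlap, and a match describes the sequence only.

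Depth ranged from 34520628 to 199847246 reads over genes. The targeted gene, P2ry14 (ENSMUSG00000036381, chromosome 3), was at 51.2 ± 31.4 (SD, n = 10) normalized reads in knockout and 151 ± 67.4 (SD, n = 10) for wild-type, a log2 difference of −1.97 with an adjusted p of 0.244 in limma's fit across all genes and 0.0144 by DESeq2. The limma difference was −2.15 to −1.39 over the 20 fits that each left out 1 library. Markers of islet cells took 30.1% ± 10.5 (SD, n = 10) of all reads for knockout and 31.2% ± 8.37 (SD, n = 10) for wild-type, and none of the 12 listed was absent from the table. Digestive enzyme genes and other markers of the acinar cells around the islets took 23.1% ± 9.24 (SD, n = 10) and 22.02% ± 9.12 (SD, n = 10). In these bulk samples, fewer cells of a type and less RNA per cell cannot be told apart.

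The members took a small and very uneven part of the reads. Together they held 0.270% ± 0.0793 (SD, n = 10) of the reads over genes in knockout and 0.221% ± 0.0354 (SD, n = 10) for wild-type. The mean normalized read count over 20 libraries had a median of 507 over the 76 members and was lowest for Rpl39l, at 0.47. It was over 10000 for 7 members, 1000 to 10000 for 20, 100 to 1000 for 28, 10 to 100 for 18 and under 10 for 3. Rps3 and Rps9, both on chromosome 7, made up 13.7% and 13.1% of the members' summed level. Rps3 stands at the message's entry, and Rps9 takes part in decoding accuracy.

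Per kilobase of coding sequence, the highest levels among the members reported here belonged to small-subunit genes. Rps9 had a mean normalized read count per coding kilobase of 54962, Rps3 of 45729, Rps21 of 26551 and Rps14 of 23149. The median over the 29 small-subunit members was 2722 per coding kilobase, against 708 over the 47 large-subunit members. Coding lengths were taken only for the members, the mitochondrial ribosomal proteins and a list of other translation genes. Over all of these together the median was 1016, so it does not describe the other genes of the table. A mean under 100 was found for 21 members, among them Rps6, the substrate of S6 kinase, at 97.9, Rpl3, which forms part of the peptidyl transferase centre, at 38.6, Rps16 at 39.6, Rps23, a protein of the decoding centre, at 50.03 and Rps29 at 8.75.

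Most of the low members have a coding sequence that is also found elsewhere in the genome. The coding sequence of each member was cut into all windows of 50 bases, and a window was counted as shared when it occurred letter for letter in the transcripts of another gene of GENCODE M21. Over 80% of the windows were shared in 19 of the 21 members with a mean under 100 and in 32 of the 55 members above it. Rps3 shared 8.05% with 1 other gene and Rps9 shared 43.3% with 1 other gene. Rps6 shared all windows with 14 other genes, Rps16 all windows with 4, Rps23 all windows with 12 and Rpl3 shared 95.7% with 26. Across the 76 members, the level per coding kilobase had a Spearman rho of −0.51 with the share of windows found elsewhere, as a description of genes that share the same libraries. The exceptions were Rpl3l, a striated muscle paralogue of Rpl3, and Rpl39l, a testis paralogue of Rpl39, which shared no window and were at means of 9.81 and 0.47.

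Stretches of 50 coding bases are printed for 3 of these low members, each present in full in other genes. The Rps6 stretch covers coding bases 471 to 520 and occurs in 13 other genes, the Rpl3 stretch covers coding bases 527 to 576 and occurs in 16, and the Rps23 stretch covers coding bases 243 to 292 and occurs in 9. All of these other genes are annotated as pseudogenes. A read from such a stretch has several equal matches, and how the authors' counting treated those was not given in the sources used here.
Rps6: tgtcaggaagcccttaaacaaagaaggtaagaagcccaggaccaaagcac
Rpl3: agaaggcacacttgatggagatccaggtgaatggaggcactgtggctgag
Rps23: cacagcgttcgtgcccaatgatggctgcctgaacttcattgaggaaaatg

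The reads listed under the copies could be larger than those under the genes. Pseudogenes sharing at least 1 window with a member numbered 1049, of which 487 were in the table. Of the 69 members with such a copy in the table, 42 were below the summed level of their copies, including 17 of the 21 members with a mean under 100 but 5 of the 27 members with a mean of at least 1000. Rps6 was at 97.9 and its copies summed to 5320, of which Rps6-ps4 held 5193. Rps16 was at 39.6, against 4420 for Rps16-ps2. Rps29 was at 8.75, against 3727 for Gm14303, and Rpl37 was at 21.4, against 4316 for Rpl37rt. Rps27 was at 24.1, with pseudogenes summing to 2.03, but Rps27rt, annotated as protein-coding and sharing all 206 of its windows, was at 3313. Summed over the family, the copies held 0.144% of the reads and the members 0.244%. Values of the low members are therefore uncertain as measures of the genes themselves.

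**Figure D1:**
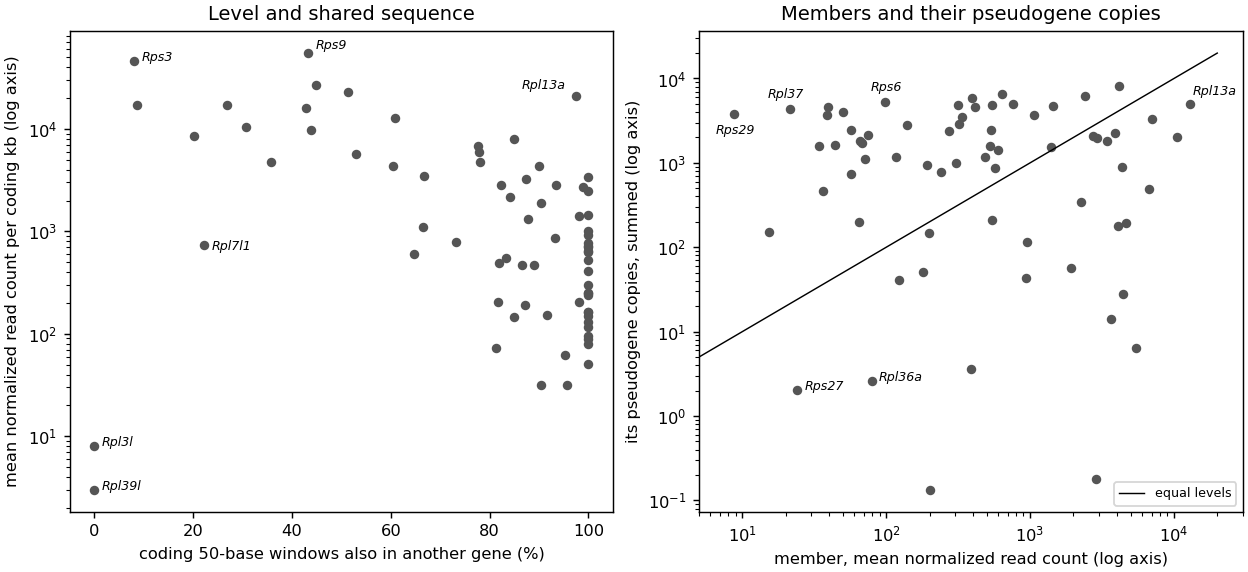
Left, each point is 1 of 74 of the 76 members, with the percent of its coding 50-base windows that are also in another gene (horizontal axis) and its mean normalized read count per coding kilobase over 20 libraries (vertical log axis). Right, each point is 1 of 68 members with pseudogene copies in the table, with its own mean normalized read count against the sum of its copies (both log axes); 41 points lie above the line of equal levels.

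Knockout islets had higher mean levels than wild-type islets across nearly the whole family, by an amount smaller than the spread between libraries for most genes. The summed normalized read count of the 76 members was 287890 ± 139002 (SD, n = 10) in knockout, with a lowest value of 112888, a median of 273302 and a highest of 639242. In wild-type it was 202138 ± 70320 (SD, n = 10), with a lowest value of 130250, a median of 177484 and a highest of 330499. The groups overlapped, the lowest library of all being a knockout one, and the mean in knockout was 1.42 times that in wild-type. The log2 of this ratio was 0.51, below the within-group SD of the log2 sums, 0.56. As a share of all reads the genotypes lay closer together. The mean shares were 0.270% in knockout and 0.221% in wild-type, and the medians 0.250% and 0.223%. By share the lowest library was wild-type library 18, at 0.165%.

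**Figure D2:**
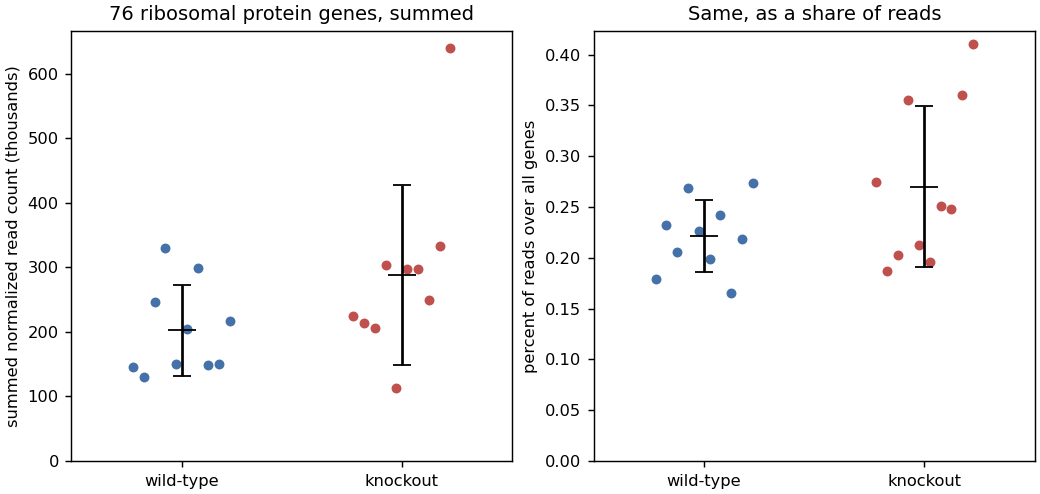
Each point is 1 library, with the summed normalized read count of the 76 members in units of 1000 (left) or their share of all reads over genes in percent (right). The bar and whisker give the mean and SD of 10 libraries per group; knockout replicate 10 stands at 639242 and the other knockout libraries lie between 112888 and 332197.

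Genotypes were compared gene by gene on log2 of the normalized read count plus 1, in limma's fit over all 17482 genes with a mean of at least 10, which included 73 of the 76 members. After Benjamini-Hochberg adjustment over all genes tested, 1 of 73 members passed a threshold of 0.05 and was higher in knockout, against 0.16% of all genes called higher and 0.28% called in either direction. The log2 difference was positive in 72 of 73 members, against 49.6% of all genes tested, and its median was 0.41, against −0.002 over all genes tested. The small subunit had positive differences in 28 of 28 tested members with a median of 0.50, and the large subunit in 44 of 45 with a median of 0.38. Because the members varied together across libraries, as shown later, these counts are not 73 separate observations. An unadjusted p under 0.05 was found by limma for 17 of 73 members, all higher in knockout, against 8.94% of all genes tested in either direction and 4.31% in that direction. DESeq2 gave such a p for 27 members and edgeR for 16, and the shares over all genes for these methods are not given here. For none of the 73 did the groups separate fully, against 0.0343% of all genes tested. The 95% interval included 0 for 56 members and reached past a log2 difference of 1 for 31, so the interval of those genes holds a difference of 2-fold.

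**Figure D3:**
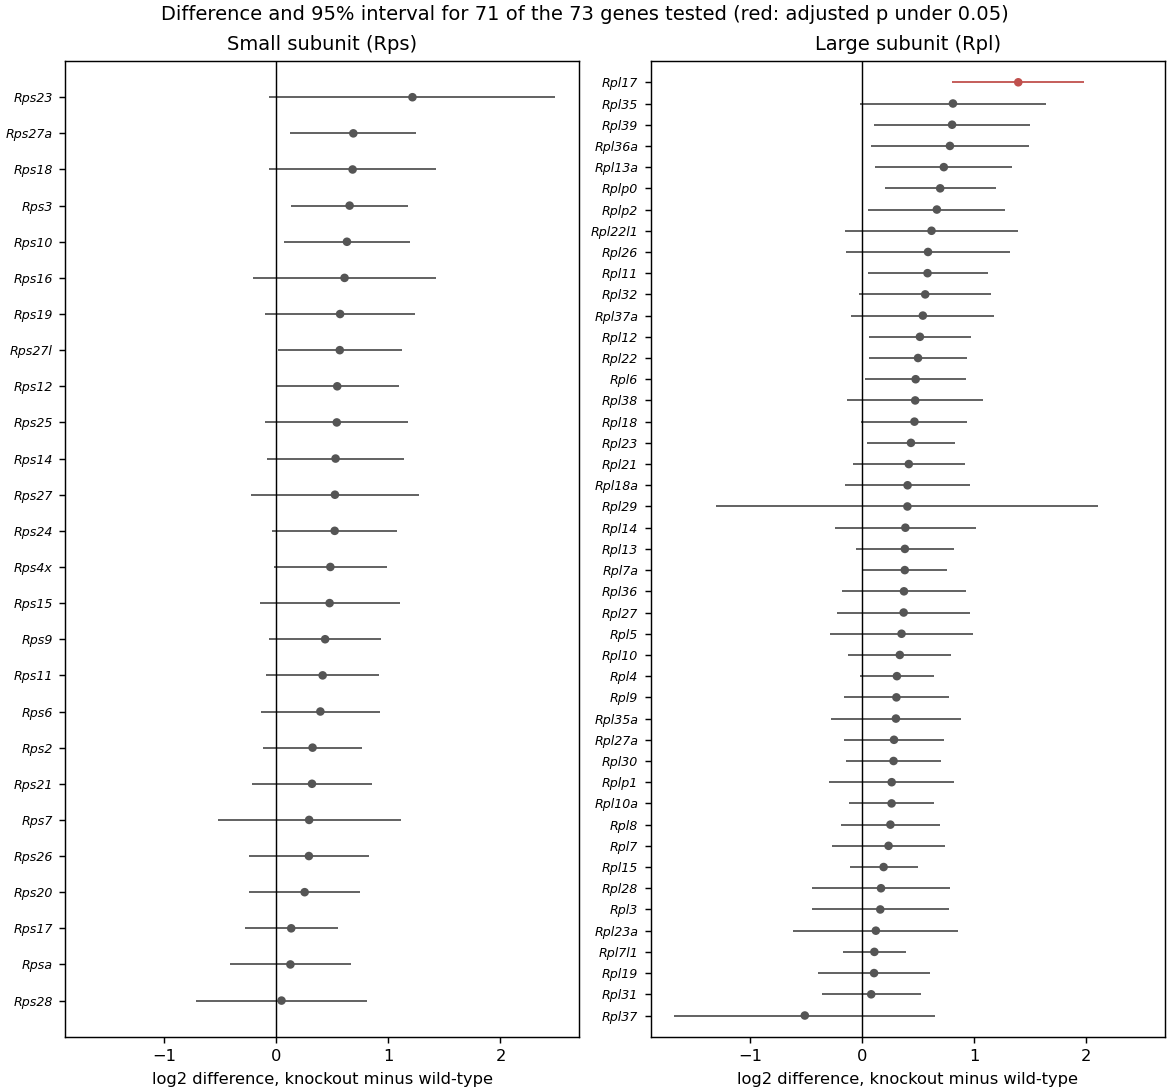
Points are the log2 difference, knockout minus wild-type, and lines its 95% interval from limma, for 26 tested small-subunit and 45 tested large-subunit members. Rpl17, in red, is the member with an adjusted p under 0.05; Rpl37 is the member with a negative difference, and 55 of the 71 intervals drawn include 0.

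Rpl17, a protein near the mouth of the large subunit's exit tunnel, was the member that passed the test. Rpl17 (ENSMUSG00000062328, chromosome 18) had a normalized read count of 37.2 in the lowest knockout library, 63.3 at the median and 88.6 in the highest. In wild-type the lowest value was 8.86, the median 23.2 and the highest 49.3. Thus 8 of 10 knockout libraries were above every wild-type library, and 8 of 10 wild-type libraries were below every knockout library. The means were 62.3 ± 17.0 (SD, n = 10) and 25.3 ± 13.5 (SD, n = 10), with a log2 difference of 1.39 (SE 0.28, 95% interval 0.81 to 1.98, adjusted p = 0.0324 by limma). The value rests on 6 to 207 reads per library, and all of its coding windows also occur in other genes, 51 in number. Summed with its 23 copies in the table, Rpl17 was at 2084 ± 976 (SD, n = 10) for knockout and 1239 ± 529 (SD, n = 10) for wild-type, a log2 difference of 0.72. The adjusted p was 0.0655 by edgeR, which called none of the 73 members and 0.154% of all genes higher, and 0.0503 by limma with no filter on low values. DESeq2 called Rpl17 (adjusted p = 0.00183) and 0.418% of all genes higher. The limma call also ended without knockout replicate 4, 7, 8 or 10 or without wild-type library 11, 12, 15 or 19, at adjusted p values of 0.0507 to 0.0826, and the log2 difference was 1.26 to 1.52 over the 20 fits that each left out 1 library.

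The stalk proteins, which form the flexible arm of the large subunit that recruits the elongation factors, had positive differences, none past the adjusted threshold by limma. Rplp0, the base of the stalk, had normalized read counts of 2648, 4143 and 12916 (lowest, median, highest) in knockout and 1772, 2972 and 4917 in wild-type. The knockout libraries above every wild-type library numbered 4, and the wild-type libraries below every knockout library numbered 5. Its log2 difference was 0.70 (SE 0.24, adjusted p = 0.358 by limma). Rplp2 had values of 261, 399 and 1193 in knockout and 133, 243 and 672 in wild-type, with 6 wild-type libraries below every knockout library and a log2 difference of 0.67 (SE 0.29, adjusted p = 0.525 by limma). Rplp1, the partner of Rplp2 in the stalk, had values of 1802, 4343 and 11833 against 2274, 3430 and 7988, with a log2 difference of 0.26 (adjusted p = 0.804 by limma) that was 0.11 without knockout replicate 10. For all 3 genes the highest library was knockout replicate 10.

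**Figure D4:**
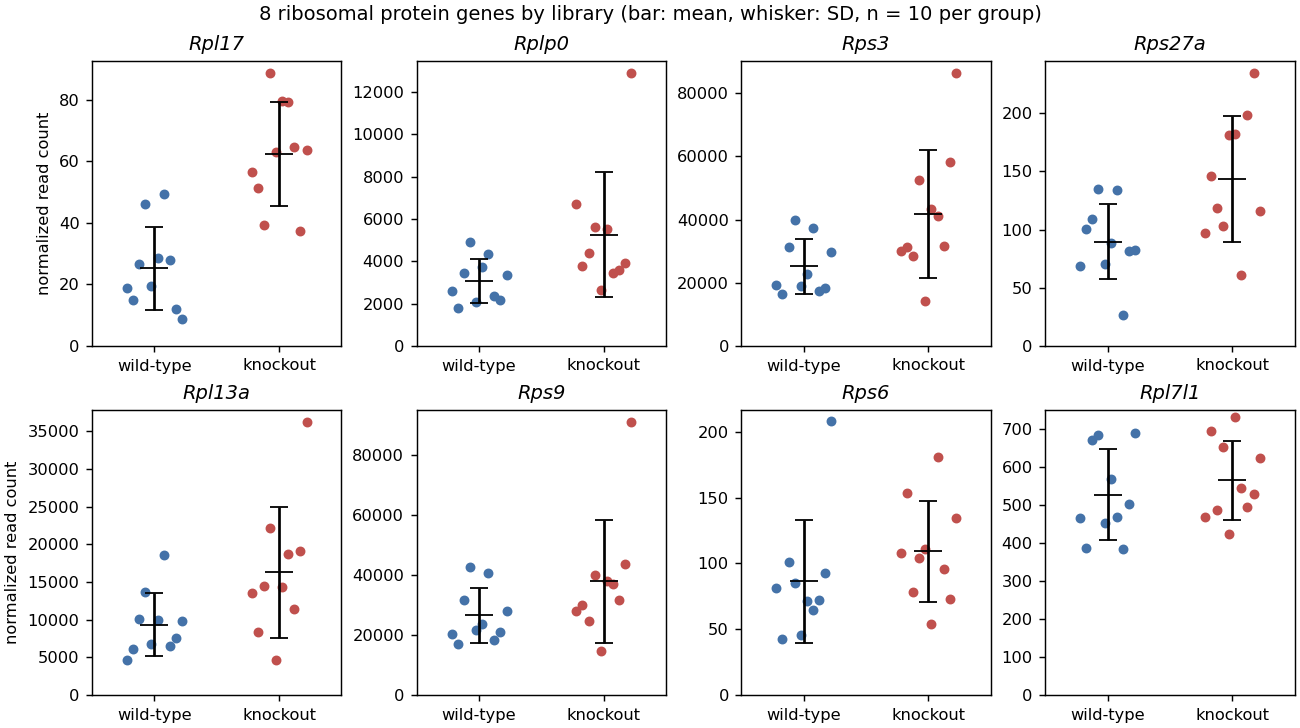
Each point is the normalized read count of a gene in 1 library, for Rpl17, Rplp0, Rps3, Rps27a, Rpl13a, Rps9, Rps6 and Rpl7l1, with the mean and SD of 10 libraries per group. In all 8 genes the groups overlap; Rpl17 has 8 knockout libraries above the highest wild-type value of 49.3, and Rpl7l1 has means of 565 in knockout and 528 in wild-type.

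In the small subunit, no tested member passed the adjusted threshold. Rps3 had normalized read counts of 14248, 36344 and 86559 (lowest, median, highest) in knockout and 16417, 21089 and 39882 in wild-type, with 5 knockout libraries above every wild-type one and the lowest library of all in the knockout group. Its log2 difference was 0.65 (SE 0.25, adjusted p = 0.440 by limma), and it is the member with the largest difference among the 6 tested that share sequence with at most 1 other gene. Rps27a, made as a fusion with ubiquitin, was at 144 ± 54.1 (SD, n = 10) and 89.7 ± 32.4 (SD, n = 10), with a log2 difference of 0.69 (adjusted p = 0.449 by limma). Other abundant members had smaller differences: the log2 difference was 0.44 for Rps9 (SE 0.24), 0.53 for Rps14 (SE 0.29) and 0.32 for Rps21 (SE 0.26). Without knockout replicate 10 these differences were 0.28, 0.34 and 0.17.

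Other small-subunit members differed less or were poorly measured. Rpsa, which also carries the name laminin receptor, had a log2 difference of 0.13 (95% interval −0.41 to 0.66), with values of 754, 2566 and 5098 in knockout and 1206, 2299 and 3796 in wild-type. Without knockout replicate 10 it was 0.00078. Rps6 was at 109 ± 38.4 (SD, n = 10) and 86.4 ± 46.7 (SD, n = 10), a log2 difference of 0.39 (SE 0.26). Rps23 had the largest small-subunit difference in limma's fit, 1.21, but its SE was 0.61, its knockout values of 21.5 to 109 lay within the wild-type range of 0 to 131, and its adjusted p was 0.582 by limma. The Rps23 difference was 0.71 without wild-type library 18 and 0.61 by edgeR, where that of Rps3 was 0.71. Rps4x, encoded on the X chromosome, had a log2 difference of 0.48 (SE 0.24, adjusted p = 0.582 by limma).

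In the large subunit, Rpl13a, which also acts outside the ribosome in silencing of inflammatory messages, had the largest difference among members with a mean over 10000. Its normalized read counts were 4645, 14395 and 36237 (lowest, median, highest) in knockout and 4580, 8672 and 18526 in wild-type, with 4 knockout libraries above every wild-type one and a log2 difference of 0.73 (SE 0.29, adjusted p = 0.471 by limma). Rpl4, whose extension lines the exit tunnel, had values of 5579, 12242 and 18328 in knockout and 6761, 9819 and 11450 in wild-type. Here 6 knockout libraries were above every wild-type one, yet the lowest library was also a knockout one, and the log2 difference was 0.31 (SE 0.16, adjusted p = 0.583 by limma). Rpl5 and Rpl11, which bind the smallest ribosomal RNA together and restrain Mdm2 when free of the ribosome, had log2 differences of 0.35 (SE 0.31) and 0.58 (SE 0.26), with adjusted p values of 0.766 and 0.525 by limma. Rpl35 had a difference of 0.81 (SE 0.40) and Rpl36a one of 0.78 (SE 0.34), both with means under 100 and adjusted p values of 0.569 and 0.516 by limma. At the other end, the difference was 0.11 for Rpl19 (SE 0.24), 0.08 for Rpl31 (SE 0.21), 0.12 for Rpl23a (SE 0.35) and 0.17 for Rpl28 (SE 0.30), and the 95% interval of each included 0. Without knockout replicate 10 the difference of Rpl19 was 0.0037.

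Several members have a paralogue in the family, and the pairs were at different levels. Per coding kilobase, Rps27l, a paralogue that p53 is known to induce, was at a mean level of 17127 and Rps27 at 94.6, whose reads may lie under Rps27rt. Rpl22 was at 10514 per coding kilobase and Rpl22l1 at 490, with log2 differences between genotypes of 0.50 (SE 0.21) and 0.62 (SE 0.37). Rpl7 was at 3484 per coding kilobase and Rpl7l1, a factor of large-subunit maturation, at 737. Rpl7l1 was the most evenly measured member: its values of 425, 537 and 733 (lowest, median, highest) in knockout and 385, 487 and 690 in wild-type gave a log2 difference of 0.11 with a 95% interval of −0.17 to 0.39. Rpl39 was at 2166 per coding kilobase, with values of 180, 361 and 1058 in knockout and 81.5, 186 and 664 in wild-type, and a log2 difference of 0.80 (SE 0.34, adjusted p = 0.486 by limma). Its paralogue Rpl39l had no reads in 18 of 20 libraries. Rpl3l was at 0 in 3 libraries, and both were too low to be tested. Rpl10, which joins the large subunit late in its maturation, was at 1039 ± 328 (SD, n = 10) and 841 ± 311 (SD, n = 10), a log2 difference of 0.34 (SE 0.22), and its paralogue Rpl10l was not analysed here.

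Members with a mean under 100 showed about the same shift as the rest, with wider error. Of the 18 tested, 17 had a positive log2 difference with a median of 0.40, and of the 55 members with a mean of at least 100 all had a positive difference with a median of 0.42. Rpl37 was the member with a negative difference, −0.51 (SE 0.56, adjusted p = 0.819 by limma), on 0 to 57 reads per library. Without knockout replicate 7 the difference was −0.081, and by edgeR −0.28. Rpl37 was at 19.4 ± 11.8 (SD, n = 10) for knockout and 23.4 ± 13.6 (SD, n = 10) for wild-type. Rpl29, which shares sequence with 82 other genes, was at 0 in 3 libraries and had a difference of 0.40 (SE 0.82). Rps12 was at 76.6 ± 24.2 (SD, n = 10) and 53.8 ± 18.3 (SD, n = 10), with 5 knockout libraries above every wild-type one and a log2 difference of 0.54 (SE 0.27, adjusted p = 0.566 by limma). Rps28, Rps7, Rpl36 and Rpl37a had differences of 0.05, 0.29, 0.37 and 0.54, with SEs of 0.37, 0.39, 0.26 and 0.31.

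The pseudogene copies had differences of about the same size as the genes. Summed, they were at 164967 ± 69628 (SD, n = 10) for knockout and 119967 ± 39371 (SD, n = 10) for wild-type, a ratio of means of 1.38 beside 1.42 for the members. Of the 177 copies with a mean of at least 10, 152 had a positive log2 difference, with a median of 0.37. Beside 0.28% of all genes tested, 1 of the 177 copies passed the adjusted threshold by limma. This was Gm9493, a copy of Rps7 on chromosome 19, with a log2 difference of 2.64 (SE 0.39, adjusted p = 0.00106 by limma). Rps7 itself was at 40.1 ± 17.6 (SD, n = 10) and 33.1 ± 19.8 (SD, n = 10), and with its copies at 858 ± 542 (SD, n = 10) and 148 ± 66.3 (SD, n = 10). With copies added to each member, 74 of 76 members had a positive difference, with a median of 0.39. Across members, the log2 difference had a Spearman rho of −0.07 with the share of coding windows found elsewhere, again as a description.

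The members varied together from library to library, apart from genotype. After each group's mean was subtracted, the correlation of a member with the mean log2 profile of the other members over 20 libraries had a median of 0.76 and was over 0.5 for 51 of 73 members. For the 17409 other genes tested, the correlation with the mean member profile had a median of 0.006 and was over 0.5 for 16.9%. The libraries share depth and cell make-up, so these are descriptions. Among the closest were Rps9 (0.98) and Rpl32 (0.96), and the farthest Rpl23a (0.01), Rpl37 (0.03) and Rpl3 (0.14). Better-measured members were closer: over 73 genes the correlation with the family had a Spearman rho of 0.80 with the mean level. The within-group SD on the log2 scale had a median of 0.62 over the members, against 0.44 over all genes tested.

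**Figure D5:**
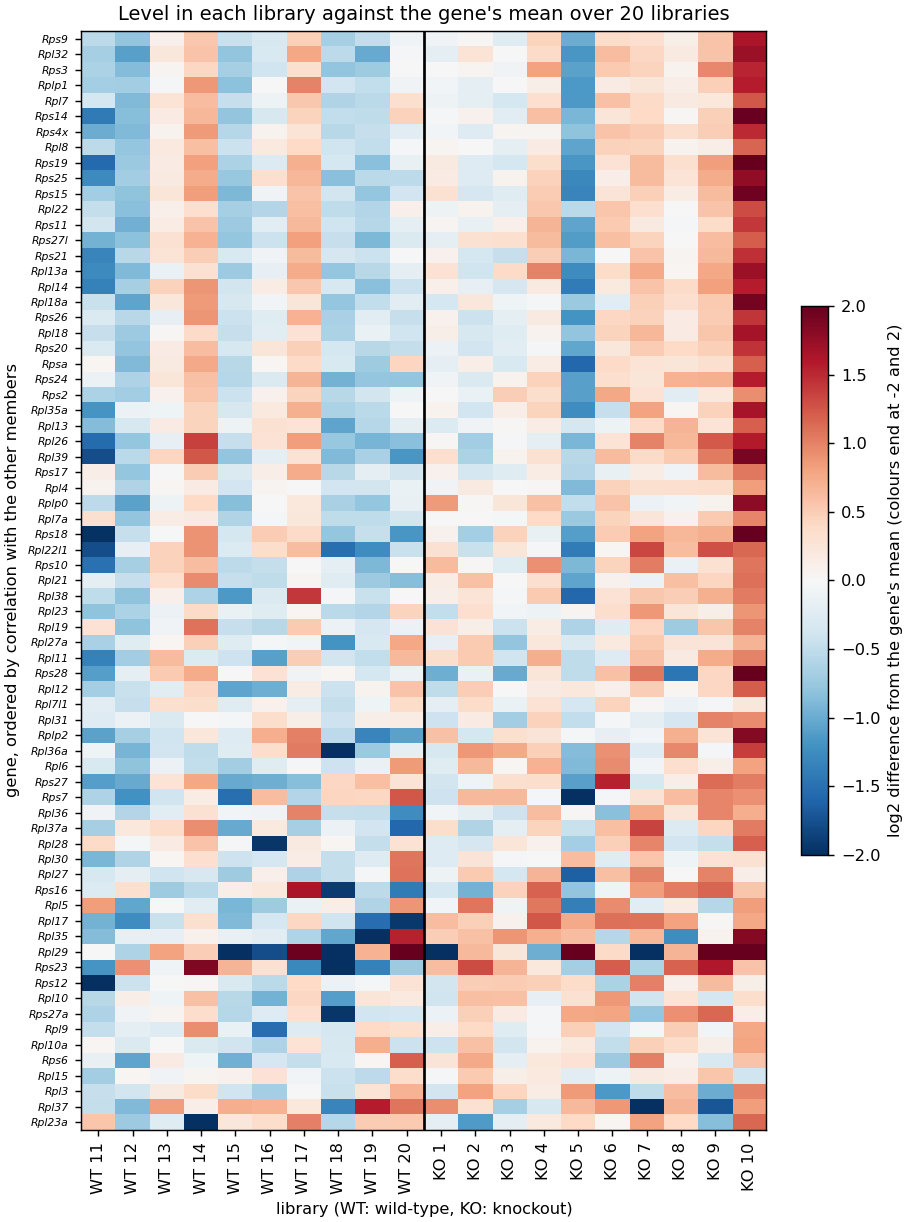
Each row is 1 of 71 of the 73 tested members and each column 1 library, with wild-type libraries 11 to 20 left of the line and knockout replicates 1 to 10 right of it. Colour gives the log2 level minus the gene's mean over 20 libraries, and rows run from the highest to the lowest correlation with the other members; knockout replicate 10 is above the mean for 70 of the 71 genes drawn and knockout replicate 5 is the lowest library for 25.

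A few libraries carried much of this shared variation. Knockout replicate 10 was the highest of the 20 libraries for 47 of 73 members and above the all-library mean for 72, and knockout replicate 5, the library with the fewest reads, was the lowest for 26. Wild-type library 11 was the lowest for 17 and wild-type library 14 was above the mean for 62. Without knockout replicate 10, the median log2 difference of the members was 0.31, with 70 of 73 positive and 6 with an unadjusted p under 0.05, and the log2 difference of the summed level was 0.30. Without knockout replicate 5, the median was 0.55 and 37 members had an unadjusted p under 0.05. The number with an unadjusted p under 0.05, 17 with all libraries, was 32 without wild-type library 14, 28 without library 17, and 10 without library 11 or without library 12. Shares over all genes are not given for these fits, so the counts show only how the number of members moved. The median correlation of a member with the others was 0.69 without knockout replicate 10.

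Markers of other cells were set beside these values. Knockout replicate 10 had the highest summed normalized level of any library for the markers of acinar cells, 52998385, of duct cells, 66595, of endothelial cells, 79117, and of macrophages and dendritic cells, 44738. As a share of reads it was the highest library only for the acinar markers, at 34.1%. Its share was 0.0428% for duct markers, beside 0.0696% in wild-type library 20. For endothelial markers it was 0.0508%, beside 0.0778% in knockout replicate 5. For markers of macrophages and dendritic cells it was 0.0287%, beside 0.0338% in knockout replicate 4. Knockout replicate 6, with a member sum of 296758, had an acinar sum of 51309880. The acinar markers had a positive log2 difference in 27 of 33 genes, with a median of 0.13, and their summed level ran from 4468313 to 52998385 in knockout and from 3682521 to 40127437 in wild-type. With the summed acinar level as a covariate, the median log2 difference of the members was 0.34 and 70 of 73 were positive. Markers of macrophages and dendritic cells were positive in 14 of 16 genes, with a median of 0.46, and summed to 8776 to 44738 in knockout and 8247 to 36084 in wild-type. Duct markers were positive in 7 of 8 genes, with a median of 0.15, endothelial markers in 3 of 8, with a median of −0.02, and islet markers in 3 of 12, with a median of −0.16. Stroma markers were positive in 6 of 9 genes by limma, with a median of 0.11, but in 2 of 9 by edgeR, with a median of −0.14. None of these marker genes passed the adjusted threshold by limma, edgeR or DESeq2. An unadjusted p under 0.05 was found for 3 macrophage and 3 islet markers by limma and by edgeR, and for 5 and 3 by DESeq2. In limma's fit these 3 macrophage markers were higher in knockout and the 3 islet markers lower. Over all genes tested the limma share was 8.94%, and the shares for edgeR and DESeq2 are not given here. The part of the duct, endothelial, stroma and macrophage markers in the difference of the ribosomal protein genes was not tested.

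Other genes of the translation machinery were set beside the family from lists. Of 20 further genes whose messages carry the terminal oligopyrimidine motif, such as elongation and initiation factors, 18 had a positive log2 difference. Their median was 0.28, and none passed the adjusted threshold by limma, edgeR or DESeq2. An unadjusted p under 0.05 was found for 3 by limma, against 8.94% of all genes tested. By edgeR it was found for 3 and by DESeq2 for 6, with shares over all genes not given here. Of these 20 genes, Eif3e, a subunit of an initiation factor, was at 895 ± 228 (SD, n = 10) and 610 ± 138 (SD, n = 10), with a difference of 0.55 (adjusted p = 0.174 by limma). Of the 77 mitochondrial ribosomal proteins, 68 were positive, with a median of 0.22, and none passed the threshold by limma. There 13 had an unadjusted p under 0.05, against 8.94% of all genes tested. Mrpl9, at 0.45 (SE 0.10), had an adjusted p of 0.0569 by limma, 0.0655 by edgeR and 0.00346 by DESeq2, and limma called it in 2 of the 20 fits that each left out 1 library. With the acinar covariate, limma called 1 of the 77, and the share over all genes in that fit is not given here. Of 36 ribosome biogenesis genes, 20 were positive, with a median of 0.01, and of 19 regulators of these messages, such as Mtor and Larp1, 7 were positive, with a median of −0.01. The correlation with the member profile had a median of 0.71 for the oligopyrimidine genes and 0.63 for the mitochondrial ribosomal proteins, but 0.13 for the biogenesis genes and −0.37 for the regulators. Summed normalized levels averaged 294554 (knockout) and 244655 (wild-type) for the oligopyrimidine genes, and 71121 and 59416 for the mitochondrial ribosomal proteins. As shares of all reads, the genotypes lay closer together. The oligopyrimidine genes took 0.284% (SD 0.0456) of knockout reads and 0.278% (SD 0.0498) of wild-type reads. The mitochondrial ribosomal proteins took 0.0705% (SD 0.0171) and 0.0674% (SD 0.0109). The reason was not tested.

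Outside the family, the 6 genes with a mean of at least 100 whose within-group profile over 20 libraries was most like that of the members were named by this correlation. Rack1, a scaffold protein that sits on the small subunit, had a correlation of 0.97 and was at 39070 ± 17458 (SD, n = 10) for knockout and 31275 ± 10351 (SD, n = 10) for wild-type, with a log2 difference of 0.28 (SE 0.22, adjusted p = 0.732 by limma). Gm14586 (0.97), Gm9843 (0.96), Rps25-ps1 (0.96) and Rps16-ps2 (0.96) are processed pseudogenes. Aurkaip1, a protein of the mitochondrial small subunit, had a correlation of 0.96.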

How the data were processed

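RNA from 10 knockout and 10 wild-type islet samples was sequenced with TruSeq RNA v2 libraries, which do not mark strand. The deposited values are a normalized signal: read counts per gene divided by DESeq size factors, per the file's name and the values. Per the submitters' processing notes, the tools included DESeq 1.16.0, TopHat 1.3.3, Cufflinks 1.3.0, FastQC and Bowtie 0.9.9, and the build was mm9; how reads with several matches were counted was not given in the sources used here. Dividing by each column's step gave whole reads for 100% of non-zero values within 0.05 reads. Wild-type columns are numbered 11 to 20 and the labels 1 to 10, so no wild-type column was tied to a particular sample. GENCODE M21 named 23950 identifiers and left 2261 unnamed, and gave chromosomes, coding lengths and transcripts; it is not on mm9, so no coordinates of it are printed.

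The test was limma 3.58.1 (R 4.3.3) with a trended prior on log2(value + 1), for genes averaging at least 10, genotype as the only term, Benjamini-Hochberg over all genes. Differences are on the log2(value + 1) scale; over members with a mean under 100 their median was 0.40, beside 0.34 by edgeR and 0.36 by DESeq2. This limma fit was also run on simulated counts with known changes, with an outcome not given here. Those counts were drawn separately for each gene, so they do not hold the shared variation of the members. Alternatives were pseudocounts of 0.5 and 10, no filter, a filter at 100, quantile normalization, TMM factors, DESeq2 1.42.0 and edgeR 4.0.16 run on recovered reads, an acinar covariate, and leaving out each library. Python 3.11.15 was used for the rest. The members, lists and tests were chosen with earlier results of these data known. Named members were those past the threshold, the 5 largest differences in each direction (mean of at least 50), the 5 highest per coding kilobase, those under 100, paralogue pairs, named roles and the 3 most and least correlated; others named, such as Rpl13a, Rpl4 and Gm9493, were chosen after their values were seen. The values of 2 members are not reported here singly, though counts and sums include them. The 8 mitochondrially encoded genes listed were not analysed here.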

Additional observations from a re-analysis of the deposited data

Results flagged for a closer look

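In each group of 10 libraries, a value was marked when its gap to the nearest other library, over the group's range, exceeded Dixon's 95% critical value, for the summed level and for each of the 42 named members. Of 86 groups tested, 20 had such a library, and each marked value was the highest of its group. The critical value marks about 1 in 20 groups only when values are normally distributed. Here the values were not log-transformed and the members share libraries, so the count of 20 cannot be set against that rate. Knockout replicate 10 accounted for 14 of them. Its summed level was 639242, beside 332197 in the next knockout library. Its normalized read count was 91014 for Rps9, 36325 for Rps14, 16841 for Rps21, 8812 for Rps4x, 5098 for Rpsa and 119.7 for Rps28 in the small subunit. In the large subunit it was 12916 for Rplp0, 11833 for Rplp1, 1193 for Rplp2, 9311 for Rpl22, 5632 for Rpl32, 1058 for Rpl39 and 166 for Rpl35.

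In wild-type, 3 libraries accounted for the other 6 marks, mostly in genes with few reads. Library 20 stood apart for Rpl35 at 135.8 and Rps6 at 208, library 17 for Rpl36 at 121.8 and Rps16 at 104, and library 14 for Rpl39 at 664 and Rps23 at 130.9.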

How the results depend on the processing

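The count of members past the threshold was 1 with limma as described. It was also 1 with pseudocounts of 0.5 and 10, TMM factors, quantile normalization, DESeq2 and the acinar covariate. With no filter, with a mean of at least 100 (which leaves Rpl17 out) and with edgeR it was 0. Leaving out 1 library gave 0 to 1. The median log2 difference of the members was 0.31 to 0.55 when 1 library was left out, and that of the summed level 0.30 to 0.62. With the acinar covariate, 2 named members turned negative, Rps28 at −0.037 and Rpsa at −0.0048. Leaving out 1 library gave −0.17 to 0.21 for Rps28, −0.024 to 0.16 for Rpl31, −0.12 to 0.26 for Rpl23a, −0.037 to 0.25 for Rpl28, 0.0037 to 0.23 for Rpl19, 0.00078 to 0.31 for Rpsa, −0.69 to −0.081 for Rpl37, 0.71 to 1.49 for Rps23, 0.17 to 0.44 for Rps21, 0.11 to 0.41 for Rplp1, 0.081 to 0.77 for Rpl29, 0.14 to 0.55 for Rps7, 0.28 to 0.57 for Rps9, 0.34 to 0.66 for Rps14, 0.35 to 0.64 for Rps12 and 0.063 to 0.16 for Rpl7l1; the cause was not tested. No paired analysis was possible because the wild-type columns carry numbers other than those of the labels. Reads limit the members under 100, with as few as 0 per library, and the value of each is uncertain where copies share its sequence.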
